A study of Mus musculus with 36 samples.

Results

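Transcripts of the selenium response genes Gpx4, Tfap2c, Sephs2 and Selenof were followed through 4 rows of a table of 27288 rows and 36 RNA-seq libraries. The rows were chosen by identifier, and which gene each holds is inferred from the order of the identifiers. The material was cortical neurons cultured from E15 embryos of the outbred mouse strain CD1. Neurons had been in culture for 24 h when a treatment of 6 h began. A 2 by 3 layout crossed 5 mM HCA (absent or present) with sodium selenite (none, 0.1 or 1), with 6 libraries in each of the 6 groups and 1 library per group from each of 6 culture batches. The groups are called control, Se 0.1, Se 1, HCA, HCA + Se 0.1 and HCA + Se 1. No unit is printed for selenite, because it reads mM on the samples and micromolar in the series text. On the samples HCA stands for homocysteic acid, a glutamate analogue, whereas the series text calls it an inhibitor of ferroptosis, the iron-dependent cell death driven by lipid peroxides. All groups shared the strain, the plating and the collection, and no altered gene is named for any group.

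Selenium enters proteins as selenocysteine, which is read from a UGA codon with the help of a hairpin in the messenger RNA. Sephs2 encodes selenophosphate synthetase, which makes the selenium donor for selenocysteine and is itself a selenoprotein. Gpx4 encodes the glutathione peroxidase that reduces lipid peroxides in membranes and so holds back ferroptosis. Selenof encodes a small selenoprotein of the endoplasmic reticulum that takes part in protein folding. Tfap2c encodes a transcription factor of the AP-2 family, and the study asked whether selenium acts on transcription in neurons.

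The names rest on a shift of the row identifiers. The Gpx4 row was deposited as ENSMUSG00000075707 (Dio3), the Tfap2c row as ENSMUSG00000074569 (Gcnt7), the Sephs2 row as ENSMUSG00000063856 (Gpx1) and the Selenof row as ENSMUSG00000035757 (Selenoo), so 3 of the 4 would carry the name of another selenoprotein gene. When all 141862 transcripts of GENCODE vM21 are sorted by identifier, each row is taken to hold the transcripts standing immediately before those of its labelled gene. The order of the rows in the table gave a test of this reading that uses no expression value. Among 9796 identifiers with 1 annotated transcript, 2558 of 9795 neighbouring rows (26.1%) lay within 1 Mb of each other on the genome when read 1 transcript back. Read at the labelled identifier, 39 of 9795 (0.398%) did, and at the other 11 shifts between 6 back and 6 forward the share was 0.316% to 0.470%. The mitochondrial rows read the same way: mt-Co1, a subunit of cytochrome oxidase, stands before the tRNA mt-Ts1, and the mt-Ts1 row held 35019 counts in the median library. The 4 rows each hold more than 1 transcript and so were outside that test, and their own names follow from the rule alone.

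Each of the 4 rows holds 1 coding transcript, and this is not the whole gene for 3 of them. The Sephs2 row holds the gene's single annotated transcript, Sephs2-201, with 1 exon and 2177 bases at chr7:127271879-127274055 on the minus strand (GRCm38), together with the non-coding transcripts Gm37370, Gm9116 and Gm38337. The Selenof row holds Selenof-201, of 1514 bases at chr3:144570426-144597680 on the plus strand, with the antisense transcript Pard3bos1. The Tfap2c row holds Tfap2c-202, of 2985 bases at chr2:172550782-172558619 on the plus strand, with a non-coding transcript of Zdhhc4. The Gpx4 row holds Gpx4-201, of 995 bases at chr10:80054037-80056439 on the plus strand, with a transcript of Adamts10 marked for decay. Reads of these companions cannot be separated from those of the named gene.

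For Gpx4 the transcript matters. Gpx4-201 starts 549 bases after Gpx4-202 at an alternative first exon and codes for 253 amino acids, the nuclear form of the enzyme known from sperm. Gpx4-202, whose start is called usual below, is annotated with 197 amino acids. It lies in a different row, named Arhgap45, which also holds coding transcripts of Wdtc1 and Ccdc80. Gpx4-207, with 157 codons annotated, lies in the row named Ccser2, which holds coding transcripts of Ap2m1, Ank3, Gapdhs and Usp17la as well. The levels of the Gpx4 row below are therefore those of this transcript and not of total Gpx4. Likewise, Tfap2c-201 and Tfap2c-206 lie in the rows named P3h1 and Gm16984, and Selenof-202 and Selenof-204 in those named Macf1 and Igf2bp2.

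**Figure D1:**
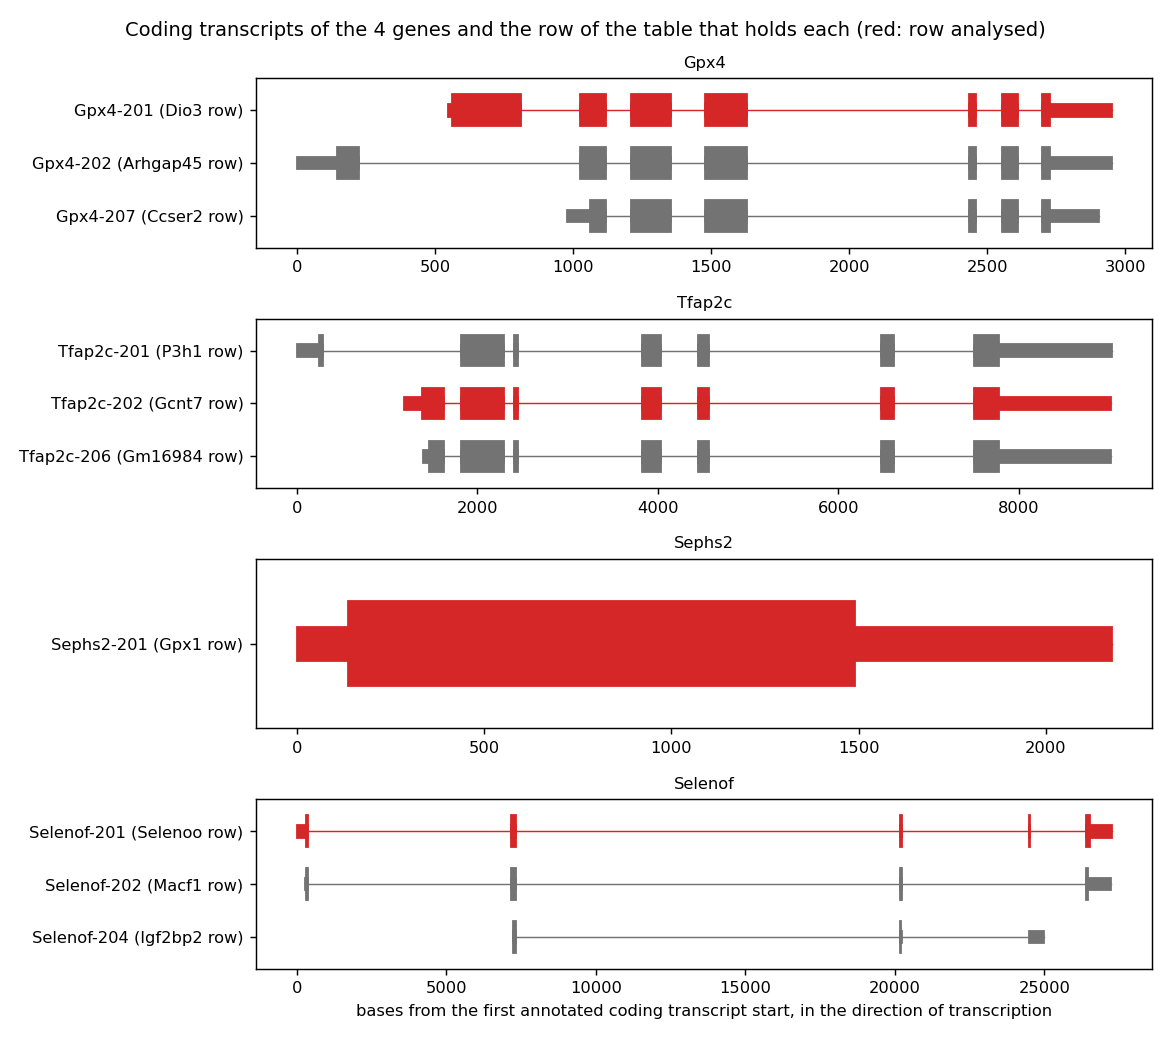
Annotated coding transcripts of the 4 genes, in bases from the first coding transcript start in the direction of transcription; wide boxes are coding exons, narrow boxes are untranslated exon parts and lines are introns. The transcripts in red are those whose rows are described, and Gpx4-201 is seen to start 549 bases downstream of Gpx4-202 with a first coding exon of its own.

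These stretches are printed to show letters upstream of each start. In capitals are the GC box (GGGCGG or its reverse complement CCGCCC, the core bound by Sp1) and the palindrome GCCNNNGGC. The palindrome is a core bound by AP-2 factors and is the same on both strands. Matches may overlap each other. The sequences are from RefSeq on GRCm38, printed 5′ to 3′ along the gene's own strand. They cover Gpx4 before the start of Gpx4-202 (chr10:80053315-80053487), Gpx4 before the RefSeq start closest to Gpx4-201 (chr10:80053761-80054010), Sephs2 (chr7:127274060-127274309, minus strand) and Selenof (chr3:144570177-144570303). Each stretch ends before the start it is named for. The Selenof stretch was cut at 144570303, because the non-coding transcript Selenof-203 starts at 144570304. The bases from there to the start of Selenof-201 at 144570426 are not printed and were not searched for motifs. The alternative Gpx4 stretch lies inside the gene, after the start of Gpx4-202 at 80053488. Both Gpx4 stretches lie within the span of the non-coding transcript Gpx4-204, which starts at 80047166.
Gpx4, usual start: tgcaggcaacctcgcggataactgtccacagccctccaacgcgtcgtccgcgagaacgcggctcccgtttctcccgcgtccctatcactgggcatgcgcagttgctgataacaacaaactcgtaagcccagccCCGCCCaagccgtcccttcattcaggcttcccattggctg
Gpx4, alternative start: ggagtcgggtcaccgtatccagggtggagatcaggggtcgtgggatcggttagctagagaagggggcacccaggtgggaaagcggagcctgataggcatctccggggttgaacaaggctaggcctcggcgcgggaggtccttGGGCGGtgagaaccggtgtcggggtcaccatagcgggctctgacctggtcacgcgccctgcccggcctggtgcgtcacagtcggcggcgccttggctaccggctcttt
Sephs2: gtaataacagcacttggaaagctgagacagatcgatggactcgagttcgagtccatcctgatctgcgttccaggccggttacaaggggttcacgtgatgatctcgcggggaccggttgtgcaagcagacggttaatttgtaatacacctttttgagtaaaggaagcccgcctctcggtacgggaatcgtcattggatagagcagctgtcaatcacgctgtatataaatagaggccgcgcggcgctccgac
Selenof: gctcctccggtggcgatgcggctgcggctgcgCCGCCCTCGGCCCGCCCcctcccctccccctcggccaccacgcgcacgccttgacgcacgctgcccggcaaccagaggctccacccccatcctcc

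Each Gpx4 stretch held 1 GC box and no GCCNNNGGC. The Sephs2 stretch held neither motif. The Selenof stretch held 2 GC boxes and 1 GCCNNNGGC. In the run of capitals the first GC box overlaps GCCNNNGGC, and the second follows it directly. Among 32851 RefSeq promoter entries, 32.7% held a GC box in the same 250 positions and 13.7% held GCCNNNGGC. In the 173 positions shown for the usual Gpx4 start, 19.9% of entries held a GC box, and in the 127 positions shown for Selenof 13.7% held a GC box and 5.98% GCCNNNGGC. A match says only that the letters are present in the window.

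The libraries differed in usable depth. With M for 1e+06, the columns summed to between 34.3 M and 56.9 M estimated counts. The share taken by rows of ribosomal RNA was highest in control, 76.2% ± 15.2 (SD, n = 6), and lowest in HCA + Se 1, 33.4% ± 27.4. It was 58.5% ± 29.6 in Se 0.1, 37.4% ± 30.4 in Se 1, 45.7% ± 30.0 in HCA and 55.8% ± 21.1 in HCA + Se 0.1. All other rows held 4.95 M to 52.6 M counts in a library. Levels are given as CPM, counts per 1e+06 counts after TMM scaling, for which the effective library size ran from 1.34 M to 224 M. That size is the summed count of the tested rows times the TMM factor, so it can exceed the counts present. In HCA + Se 1 batch 6 it was 224 M, for a column total of 53.5 M. The libraries of control batch 5, control batch 6 and Se 0.1 batch 5, all without HCA, had the 3 smallest effective sizes, 3.51 M, 5.40 M and 1.34 M. Effective size did not follow depth alone. Outside ribosomal RNA, control batches 5 and 6 held 8.27 M and 6.90 M counts. Se 0.1 batch 2, which was kept, held 6.10 M, with an effective size of 10.1 M. Several values below are also given without the 3 libraries of smallest effective size. Of the neuron markers, 7 of 10 had a row of their own, led by the neuronal tubulin Tubb3 at a mean of 869 CPM (408 to 1339). A marker's row, like those of the members, can hold only part of its gene's transcripts. The neuron markers summed to 475 to 1386 CPM in a library. The 4 astrocyte markers with a row summed to 13.2 to 54.3 CPM, and the endothelial marker Pecam1 had a mean of 0.448 CPM. In such bulk cultures, fewer cells of a type and less RNA per cell cannot be told apart.

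Sephs2 was the steadiest of the 4. Its level was 7.41, 14.4 and 16.7 CPM (lowest, median and highest of 6) in control. With Se 0.1 it was 10.5, 15.1 and 16.3 CPM, and with Se 1 it was 12.9, 15.5 and 19.1 CPM. The ranges overlapped. In HCA the lowest, median and highest values were 14.3, 15.6 and 21.0 CPM, in HCA + Se 0.1 they were 14.2, 15.5 and 19.2 CPM, and in HCA + Se 1 they were 13.3, 15.7 and 19.0 CPM. The 3 lowest values of all 36 libraries, 7.41, 9.63 and 10.5 CPM, belonged to the 3 libraries of smallest effective size, with 26, 52 and 14 counts behind them. Against control, Se 1 gave a log2 fold change of 0.24 ± 0.16 (SE, 95% interval -0.08 to 0.55; edgeR quasi-likelihood test, adjusted p = 0.993), with the level higher in 4 of 6 batches. Without those 3 libraries the log2 fold change was 0.02 ± 0.13. Ordered by mean, control was lowest, then Se 0.1, Se 1, HCA + Se 0.1, HCA + Se 1 and HCA, and the ranges of neighbours overlapped. With HCA present, Se 1 gave -0.06 ± 0.15 (-0.38 to 0.25), higher in 3 of 6 batches. On the fold scale, the 95% intervals of the fit to all libraries for Se 1 ran from 0.945 to 1.47 without HCA and from 0.771 to 1.19 with it.

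Gpx4, through the alternative transcript, had a median of 75.5 estimated counts and was above 0 in 33 of 36 libraries, with 6 to 422 counts in those. Control libraries ran from 0 through a median of 0.942 to 3.71 CPM, Se 0.1 from 0 through 1.71 to 2.10 CPM, and Se 1 from 0 through 1.30 to 3.10 CPM. Group means lay between 1.27 and 1.88 CPM, and every pair of groups adjacent in that order overlapped. The order of means from low to high was control, Se 0.1, Se 1, HCA + Se 1, HCA + Se 0.1 and HCA. Levels in HCA ran from 0.459 through 1.78 to 3.90 CPM, in HCA + Se 0.1 from 0.259 through 1.61 to 2.69 CPM, and in HCA + Se 1 from 0.727 through 1.25 to 2.75 CPM. The row was at 0 in 3 libraries. A count of 0 allows, at 3 counts per library and for counting error only, up to 0.556 CPM in control batch 6, 2.24 CPM in Se 0.1 batch 5 and 0.197 CPM in Se 1 batch 6. The first 2 of these are among the 3 libraries of smallest effective size, and the third had an effective size of 15.2 M.

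The Gpx4 row did not pass the test for selenite. Against control, the log2 fold change was 0.31 ± 0.66 (SE, 95% interval -1.03 to 1.66) for Se 0.1 and 0.22 ± 0.65 (-1.10 to 1.55) for Se 1. In cultures given HCA it was -0.30 ± 0.62 (-1.56 to 0.95) for Se 0.1 and -0.39 ± 0.62 (-1.65 to 0.86) for Se 1. The interval for Se 1 without HCA therefore includes a rise of up to 2.92-fold and a fall to 0.466 of control. At this depth and spread, no change and a change inside that interval cannot be told apart. With the libraries of smallest effective size left out (control batches 5 and 6 and Se 0.1 batch 5), the values against control were 0.71 ± 0.65 (-0.62 to 2.05) for Se 0.1 and 0.50 ± 0.63 (-0.79 to 1.78) for Se 1, with an adjusted p of 1.00 for each (edgeR). The row was higher than control in 4 of 6 batches with Se 0.1 and in 3 of 6 with Se 1. The spread between libraries of a group was 51.5% to 100% of the mean, while counting error alone came to 8.68% to 36.4%.

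The usual form of Gpx4 could be followed only in a mixed row. That row, which shares its counts with Wdtc1 and Ccdc80, had group means between 54.3 and 80.2 CPM. Its log2 fold change was -0.23 ± 0.24 (SE) for Se 0.1 and 0.32 ± 0.24 (95% interval -0.18 to 0.81) for Se 1 against control. With HCA present, these were -0.22 ± 0.24 and -0.14 ± 0.24. The row with Gpx4-207 gave 0.20 ± 0.18 for Se 1 against control and -0.03 ± 0.18 with HCA present. Neither row passed in these comparisons, and how much of either is Gpx4 RNA was not measured.

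**Figure D2:**
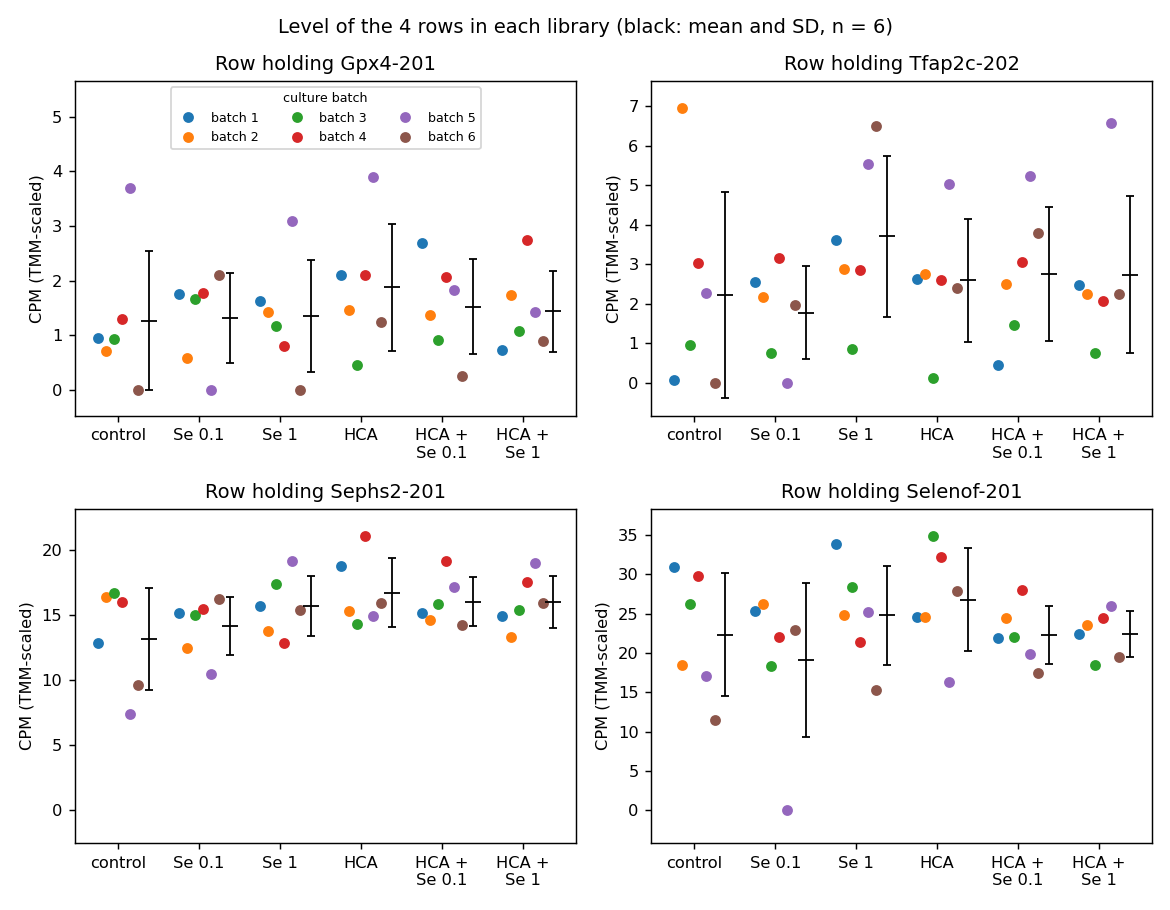
CPM after TMM scaling of each of the 4 rows in every library (points, coloured by culture batch), by group, with the mean and SD of 6 libraries in black; HCA was given at 5 mM and Se is sodium selenite at the labelled dose. The groups overlap in all 4 panels, and batch 5 of Se 0.1 lies at 0 in 3 of them.

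The Tfap2c row had medians between 1.62 and 3.25 CPM by group and between 0.805 and 5.14 CPM by culture batch. It ran from 0 through a median of 1.62 to 6.95 CPM in control, from 0 through 2.07 to 3.16 CPM with Se 0.1, and from 0.854 through 3.25 to 6.51 CPM with Se 1. Se 1 had the highest group mean, 3.71 ± 2.04 CPM (SD, n = 6), against 2.22 ± 2.61 CPM in control, and the ranges overlapped. With HCA the lowest, median and highest values were 0.131, 2.63 and 5.04 CPM, with HCA + Se 0.1 they were 0.442, 2.78 and 5.24 CPM, and with HCA + Se 1 they were 0.751, 2.25 and 6.59 CPM. The log2 fold change for Se 1 against control was 0.73 ± 0.70 (SE, 95% interval -0.69 to 2.16; edgeR, unadjusted p = 0.302), and the row was higher in 3 of 6 batches. Leaving out 1 culture batch at a time gave 0.27 to 1.61, and leaving out the 3 libraries of smallest effective size gave 0.47 ± 0.73. In cultures given HCA the log2 fold change for Se 1 was 0.06 ± 0.67 (-1.30 to 1.42). The order of means from low to high was Se 0.1, control, HCA, HCA + Se 1, HCA + Se 0.1 and Se 1, and each neighbour's range overlapped the next.

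Across the 6 groups, batch 3 held between 0.131 and 1.47 CPM of Tfap2c with a median of 0.805 CPM, the lowest batch median. Batch 5 had a median of 5.14 CPM, with 5 of its 6 libraries between 2.28 and 6.59 CPM and Se 0.1 at 0. The row with Tfap2c-201, which shares its counts with Pgk1 and others, was higher with Se 1 than in control by 0.49 ± 0.19 on the log2 scale (95% interval 0.09 to 0.88; edgeR, unadjusted p = 0.0170, adjusted p = 0.844), in 4 of 6 batches, and so did not pass. Leaving out the 3 libraries of smallest effective size gave 0.39 ± 0.21 (-0.03 to 0.81). With HCA present its log2 fold change for Se 1 was 0.07 ± 0.19. The row with Tfap2c-206 was at 0 in 6 libraries and had group means of 0.230 to 1.47 CPM.

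Selenof was the most abundant of the 4 rows by CPM, which is not corrected for length. Control libraries held 11.5, 22.3 and 30.9 CPM (lowest, median and highest), Se 0.1 held 0, 22.5 and 26.2 CPM, and Se 1 held 15.3, 25.0 and 33.8 CPM. The 0 was in batch 5 of Se 0.1, where 3 counts equal 2.24 CPM and where Sephs2 still had 14 counts, and the other 5 libraries of that group held 18.3 to 26.2 CPM. With HCA the values were 16.4, 26.3 and 34.8 CPM, with HCA + Se 0.1 they were 17.4, 22.0 and 28.0 CPM, and with HCA + Se 1 they were 18.4, 23.0 and 25.9 CPM. Se 1 against control gave a log2 fold change of 0.14 ± 0.31 (SE, 95% interval -0.49 to 0.77), higher in 5 of 6 batches. Without the 3 libraries of smallest effective size it was -0.08 ± 0.19, the opposite sign. In cultures given HCA, Se 0.1 gave -0.26 ± 0.31 and Se 1 gave -0.26 ± 0.31, and each was lower in 5 of 6 batches. These 2 comparisons share the HCA libraries. By mean the order from low to high was Se 0.1, HCA + Se 0.1, control, HCA + Se 1, Se 1 and HCA, again with overlap between neighbours.

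The other rows of Selenof gave no call either. Selenof-202, in a row shared with other genes, had a log2 fold change of 0.15 ± 0.15 for Se 1 against control. The row with Selenof-204 gave -1.82 ± 0.52 (95% interval -2.88 to -0.76; edgeR, unadjusted p = 0.00133, adjusted p = 0.689) in the same comparison. That mixed row ranged from 3.77 to 32.6 CPM in control and from 2.69 to 9.21 CPM with Se 1, and it reached 62.8 CPM in Se 0.1. Without the 3 libraries of smallest effective size it ranged up to 17.2 CPM in control and 9.70 CPM in Se 0.1, and the Se 1 value was -1.003 ± 0.34 (edgeR, adjusted p = 0.840). Its values are given because the row holds a Selenof transcript, and what part of them is Selenof was not measured.

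For selenite, then, 0 of the 4 rows passed at an adjusted p under 0.05 in the 4 comparisons of a dose with its own control (edgeR, Benjamini-Hochberg over 25588 tested rows). The background was the same: 0% of the 25588 rows passed in each. At an unadjusted p under 0.05 edgeR had 1098 rows (4.29%) for Se 0.1 and 1363 (5.33%) for Se 1 against control. In cultures given HCA it had 258 (1.01%) and 207 (0.809%), and no member was among any of these. DESeq2 called 11, 19, 2 and 3 rows in the same order, none of them a member, and limma voom called 0 in each. Averaging a dose over cultures with and without HCA gave 0 calls as well (edgeR, 0% of rows). Here 689 (2.69%) and 845 rows (3.30%) had an unadjusted p under 0.05. The averaged log2 fold change for Se 1 was -0.09 ± 0.45 for Gpx4, 0.40 ± 0.48 for Tfap2c, 0.09 ± 0.11 for Sephs2 and -0.06 ± 0.22 for Selenof (SE). The median over all rows for Se 1 against control was 0.12 with edgeR and 0.03 with DESeq2, and relative to the edgeR value the differences of Sephs2 and Selenof exceeded it by 0.11 and 0.02.

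Whether HCA altered the response to selenite was tested as an interaction. The difference between the responses to Se 1 with and without HCA was -0.62 ± 0.90 for Gpx4, -0.67 ± 0.97 for Tfap2c, -0.30 ± 0.22 for Sephs2 and -0.40 ± 0.44 for Selenof on the log2 scale (SE). All 4 were below 0, and none passed (edgeR, adjusted p = 1.00 for each). The median over all rows was -0.09. With the same 3 libraries left out these were -0.89 ± 0.83, -0.41 ± 0.96, -0.08 ± 0.18 and -0.17 ± 0.26 in the same order. For Se 0.1 the same difference was -0.62 ± 0.90, 0.26 ± 0.98, -0.17 ± 0.26 and -0.09 ± 0.44 in that order, and without those libraries -1.01 ± 0.85, 0.40 ± 0.98, -0.01 ± 0.18 and -0.06 ± 0.26. No row of the table passed for either interaction with edgeR (0%). For Se 0.1 and Se 1, 629 (2.46%) and 594 rows (2.32%) had an unadjusted p under 0.05. DESeq2 called 4 and 8 rows, none of them a member.

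**Figure D3:**
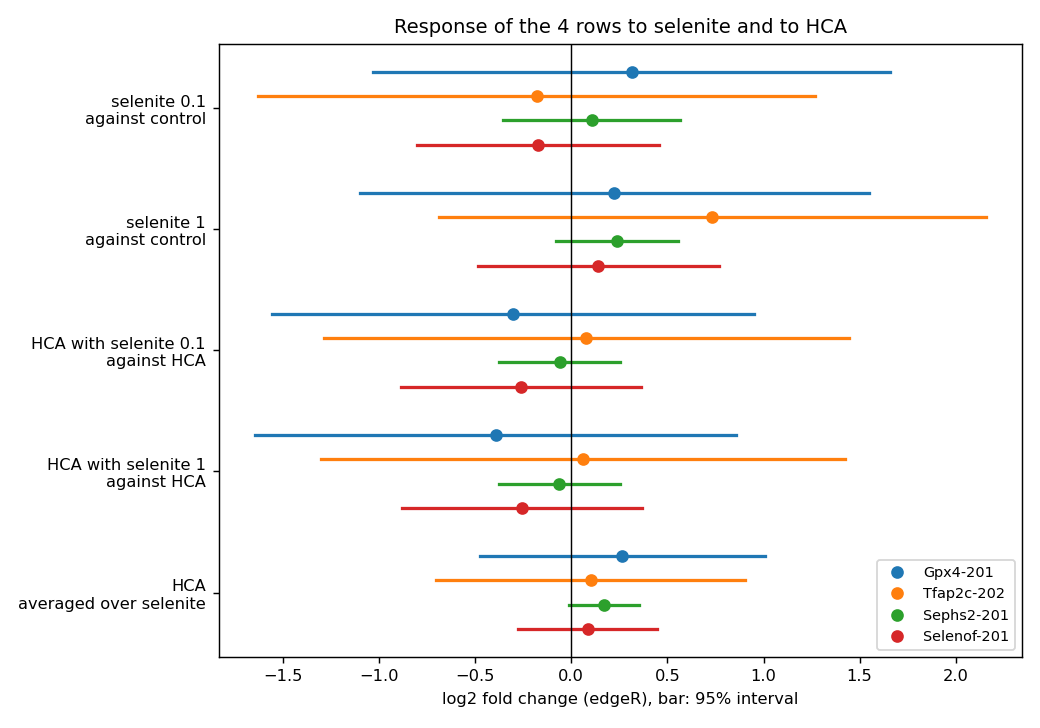
Log2 fold change (edgeR, circles) with its 95% interval (bars) of the 4 rows for each selenite dose against its own control and for HCA averaged over the selenite doses, on the log2 scale. Every interval spans 0, and those of Gpx4-201 and Tfap2c-202 are several times wider than that of Sephs2-201.

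With HCA itself, rows of the table passed the test. Averaged over the 3 selenite levels, 413 of 25588 rows passed (edgeR, 1.61%), 282 higher (1.1%) and 131 lower (0.512%). None of the 4 members was among them. Sephs2 came closest, with a log2 fold change of 0.17 ± 0.09 (SE, 95% interval -0.01 to 0.35; edgeR, unadjusted p = 0.0657, adjusted p = 0.475), higher in 10 of 18 batch pairs. Without the 3 libraries of smallest effective size it was 0.08 ± 0.07. Gpx4 had 0.27 ± 0.36 (-0.48 to 1.01), Tfap2c 0.10 ± 0.40 (-0.70 to 0.91) and Selenof 0.08 ± 0.18 (-0.28 to 0.45). The row with Gpx4-207 had 0.24 ± 0.10 (0.04 to 0.45; edgeR, unadjusted p = 0.0225, adjusted p = 0.298), higher in 14 of 18 pairs, and the row with Selenof-204 had -1.03 ± 0.30 (edgeR, adjusted p = 0.0725). Fitted without those libraries, these were 0.19 ± 0.09 and -0.37 ± 0.19 (edgeR, adjusted p = 0.415 and 0.429), Selenof had -0.06 ± 0.10 and Tfap2c -0.02 ± 0.39. Some markers of several cell types passed the test with HCA. Of 4 astrocyte markers, the glutamate transporters Slc1a2 (-0.51; edgeR, adjusted p = 0.0298) and Slc1a3 (-0.68; edgeR, adjusted p = 0.0389) were lower and 2 did not pass. Of 4 oligodendrocyte lineage markers, the transcription factor Olig2 was lower (-0.71; edgeR, adjusted p = 0.00401) and 3 did not pass. Of 7 neuron markers, Gad1, which makes the transmitter GABA, was higher (0.85; edgeR, adjusted p = 0.000773) and 6 did not pass. No microglial (3), endothelial (1) or progenitor (2) marker passed. The summed level of the 4 astrocyte markers was 13.2 to 40.6 CPM with HCA and 25.9 to 54.3 CPM without it. The summed neuron markers ran from 783 to 1386 CPM with HCA (group medians 991 to 1048). Without HCA they ran from 475 to 1312 CPM (group medians 834 to 898), so the ranges overlapped. Tubb3, the largest of them, did not pass (0.32, edgeR, adjusted p = 0.244). The oligodendrocyte markers had group medians of 7.81 to 8.21 CPM with HCA and 8.87 to 9.99 CPM without it. What part these marker differences have in the values of the 4 rows was not tested.

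The wider selenoprotein family was read from a list of 24 genes, of which 11 had a row holding coding transcripts of that gene alone and were tested. With selenite 0 of 11 passed at either dose, with or without HCA (edgeR, against 0% of all rows). The row of Txnrd2, the mitochondrial thioredoxin reductase, was at 0 in all 6 control libraries and at most 1.78 CPM elsewhere, so no fold is given for it. Over the other 10 genes, the median log2 fold change was 0.05 for Se 0.1 and 0.32 for Se 1 against control, where all rows had medians of 0.04 and 0.12. The highest at Se 1 was Gpx3, the secreted glutathione peroxidase, at 0.76 (95% interval -0.20 to 1.72). Its row averaged 0.264 CPM in control, with 2 of 6 libraries at 0, and 0.512 CPM with Se 1. The lowest was Gpx1, the cytosolic glutathione peroxidase, at -0.41 (-1.08 to 0.27). In the fit without the 3 libraries of smallest effective size the median for Se 1 was 0.29, where all rows had 0.10, Gpx3 had 0.39 (-0.46 to 1.23) and Gpx1 -0.21 (-0.96 to 0.54). With HCA present the median was -0.02 for Se 0.1 over the 10 genes without Txnrd2, and -0.21 for Se 1 over all 11, where all rows had 0.00 and 0.02. Selenos, a selenoprotein of the endoplasmic reticulum, was the highest at Se 1, at 0.03 (-1.17 to 1.22).

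With HCA, 1 of the 11 selenoprotein genes passed, against 1.61% of all rows. This was Selenoo, which encodes a mitochondrial selenoprotein and was measured in the row named Gm24966, not in the row that bears its own name. Its lowest, median and highest levels were 6.48, 9.88 and 12.2 CPM in control and 10.6, 19.1 and 23.1 CPM in HCA. In Se 0.1 they were 5.98, 9.29 and 10.9 CPM, and with HCA added 13.4, 14.6 and 23.2 CPM. In Se 1 they were 8.85, 10.2 and 17.9 CPM, and with HCA added 10.8, 14.3 and 25.5 CPM. Selenoo rose by a log2 fold change of 0.76 (95% interval 0.48 to 1.04; edgeR, adjusted p = 0.000764) and was higher in 17 of 18 batch pairs. For Se 1 against control it had 0.30 (-0.18 to 0.79). Read by the deposited symbols instead, 20 of the 24 names had a row and 0 passed in any of these comparisons.

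**Figure D4:**
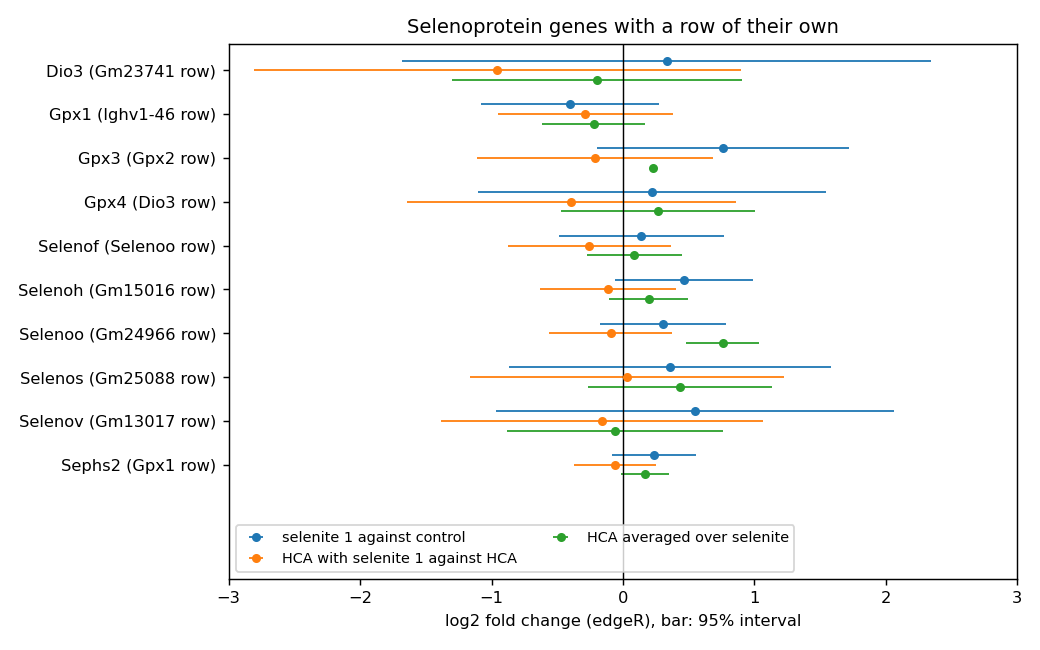
Log2 fold change (edgeR, circles) with its 95% interval (bars) of 10 selenoprotein genes that have a row of their own, for Se 1 against control, for HCA + Se 1 against HCA and for HCA averaged over selenite; the symbol under which each row was deposited is in brackets. Selenoo with HCA (0.76) is the only value past the test, Txnrd2 is left out because it was at 0 in every control library, and no interval could be derived for Gpx3 with HCA.

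The genes that make and insert selenocysteine, among which Sephs2 counts, had 8 of 15 list members with a row of their own. None passed for selenite (0% of all rows passed) or HCA (1.61%). The median for Se 1 against control was 0.15. Pstk, the kinase that phosphorylates the serine tRNA precursor, was highest at 0.68 (95% interval -0.61 to 1.97). Its row averaged 0.677 CPM in control, with 2 of 6 libraries at 0, and 1.18 CPM with Se 1. Eefsec, the selenocysteine elongation factor, was lowest at -0.19 (-0.78 to 0.40). In the fit without the 3 libraries of smallest effective size the median was 0.03, Pstk had 0.25 and Eefsec -0.27. With HCA present the median was -0.11. For HCA averaged over selenite the median was 0.10 (0.03 without the 3 libraries), and Scly, the lyase that recovers selenium from selenocysteine, was the lowest at -0.33 (-0.69 to 0.03).

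Of the AP-2 and Sp transcription factors, 4 of 7 had a row of their own, and none passed in any comparison, where 0% of rows passed for selenite and 1.61% for HCA. All 4 were AP-2 genes. Tfap2b was the highest for Se 1 against control, with a fitted log2 fold change of 2.91 (95% interval 0.29 to 5.54; edgeR, adjusted p = 0.896). It was at 0 in 5 of 6 control libraries and averaged 0.195 CPM with Se 1, so the size of that value rests on very few counts, and it was 2.72 (-0.21 to 5.65) without the 3 libraries. Tfap2d was the lowest at -0.15 (-0.84 to 0.53), and Tfap2c itself had the 0.73 given above.

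Ferroptosis genes gave 1 call, for HCA. Of 17 genes that protect cells from ferroptosis, 7 had a row of their own. Of these, 0 passed for selenite and 1 rose with HCA, where 1.61% of all rows passed. That gene was Slc3a2, the heavy chain of the cystine importer, in the row named Nxf1. Its lowest, median and highest levels were 25.1, 36.1 and 39.5 CPM in control and 46.6, 55.4 and 67.1 CPM in HCA. With Se 0.1 and 1 the values without HCA were 23.2 to 39.0 and 28.8 to 39.5 CPM, and with HCA 52.3 to 63.4 and 54.5 to 64.0 CPM. Slc3a2 rose by 0.76 on the log2 scale (95% interval 0.62 to 0.90; edgeR, adjusted p = 2.71e-09) and was higher in 18 of 18 batch pairs. For Se 1 against control its log2 fold change was -0.0011 (-0.25 to 0.25). Among the protecting genes, Gss, the glutathione synthetase, had the highest value for Se 1 against control, 0.96 (0.13 to 1.79; edgeR, adjusted p = 0.883), and did not pass. Vkorc1l1, a vitamin K reductase, had the lowest, -3.79 (-7.06 to -0.53; edgeR, adjusted p = 0.880), with 0.629 to 28.8 CPM in control and 0.0165 to 4.08 CPM with Se 1. Control reached 9.40 CPM without the 3 libraries, and Vkorc1l1 then had -2.37 (-5.59 to 0.86) and Gss 0.86.

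Of 12 genes that drive ferroptosis, 5 had a row of their own, and none passed for selenite or HCA. Acsl4, which activates polyunsaturated fatty acids to their CoA esters, had the lowest value for Se 1 against control. It was -1.57 (95% interval -2.62 to -0.53, edgeR, adjusted p = 0.747). Acsl4 levels ran from 1.77 to 7.13 CPM in control and from 0.449 to 2.30 CPM with Se 1. When the 3 libraries of smallest effective size were left out, control reached 5.02 CPM and the value was -1.19 (-2.19 to -0.20; edgeR, adjusted p = 0.971). Lpcat3, which inserts such fatty acids into phospholipids, was the highest at 0.47 (0.00 to 0.94), or 0.62 (0.12 to 1.13; edgeR, adjusted p = 0.962) without them.

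The rows most alike to each member were taken by Pearson's r of log2(CPM + 1) over the 36 libraries, among 8998 rows given to 1 coding gene. For Selenof these were Timm23 (0.93), Epc1 (0.92) and Ncbp2 (0.92), all at 0 in at least 1 library as Selenof was. For Sephs2 they were Ubac1 (0.89), Klhdc8b (0.87) and Mrpl57 (0.86). For Gpx4 they were Pcbp4 (0.75), Gnai2 (0.74) and Pqlc2 (0.73), and for Tfap2c Rabac1 (0.74), Jmjd7 (0.73) and Slc16a3 (0.72). The points share libraries of very unequal depth, so these values describe the libraries as well as the genes.

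**Figure D5:**
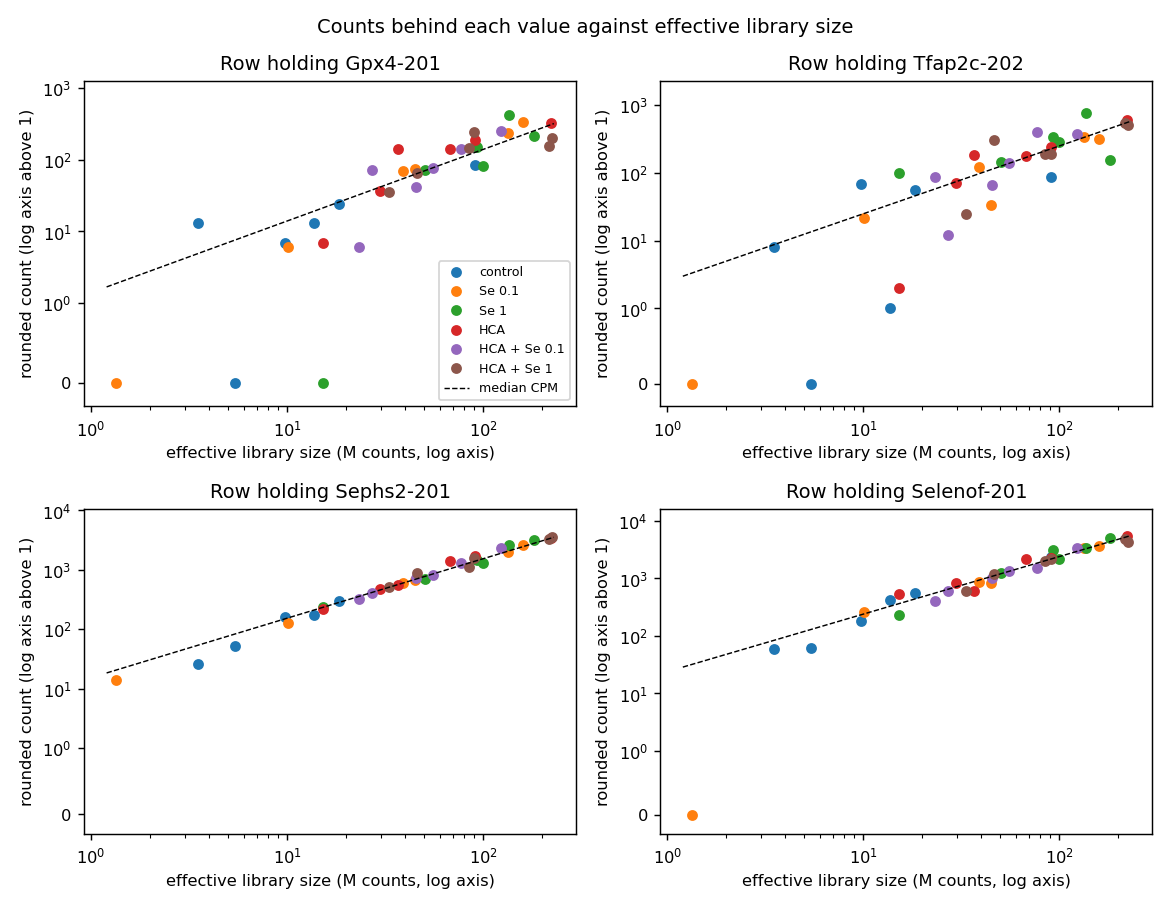
Rounded count of each row against the effective library size in M counts, both on log axes, with 36 libraries coloured by group and a dashed line at the row's median CPM. The 3 libraries of smallest effective size lie below the line for Sephs2-201, at 7.41, 9.63 and 10.5 CPM against a median of 15.4 CPM. Gpx4-201 and Tfap2c-202 reach 0 in 3 and 2 libraries.

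The precision thus differed widely among the 4 rows. Counts ran from 0 to 422 for Gpx4, 0 to 756 for Tfap2c, 14 to 3565 for Sephs2 and 0 to 5432 for Selenof. Between libraries of a group the coefficient of variation was 11.6% to 29.7% for Sephs2 and 13.0% to 51.1% for Selenof, but 55.0% to 118% for Tfap2c. Counting error alone came to 2.98% to 9.13% for Sephs2, 2.48% to 6.60% for Selenof and 7.26% to 22.9% for Tfap2c. Any error in assigning reads among overlapping transcripts is not part of these figures.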

How the data were processed

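The authors deposited 1 table of estimated counts per gene identifier, as the unequal column totals show, although the file is called TPM. STAR, Salmon and GRCm38 are named in the submitters' processing notes, with no versions; the annotation release and the filter behind the table are not given in the sources used here. Of the identifiers, 99.3% occur in GENCODE vM21. These were rounded and tested with edgeR 4.0.16 (R 4.3.3): rows kept by filterByExpr, TMM factors, quasi-likelihood test, all 36 libraries in 1 model of 6 group means, Benjamini-Hochberg over 25588 rows. An interval was derived from the p-value, and left out where that SE exceeded 3 times the one from the F statistic. DESeq2 1.42.0, limma 3.58.1 (voom) and the other settings of the closing section were alternatives. Scripts were tested on simulated data. Replicate numbers are culture batches per the labels, and so pair the libraries. Deviations of same-batch libraries correlated with a median of 0.0848 (90 pairs, -0.241 to 0.422), against -0.0141 between batches. Whether cultures of a batch came from separate animals is not stated, so p-values measure the spread between these libraries.

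The members and gene lists were chosen with earlier results of these data known. Named were the 4 rows, other rows holding their coding transcripts, list genes that passed or else the highest and lowest, and the 3 rows most alike to each member. Ribosomal RNA rows were picked by annotated type and a list of loci, to which Lars2 and Mir6236 were added after the data were seen. Of the promoter table, Gpx4, Sephs2 and Selenof matched, and Tfap2c is named only.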

Additional observations from a re-analysis of the deposited data

Results flagged for a closer look

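In 3 of the 24 sets of 6 libraries (4 rows in 6 groups), the highest or lowest library stood far from the other 5 by Dixon's gap. Chance gives about 1 such set in 20 for independent normal values of equal precision. These sets share libraries of very unequal effective size, so the count cannot be weighed against that rate. The Gpx4 row in control was highest in batch 5, at 3.71 CPM on 13 counts. The Tfap2c row in HCA + Se 1 was highest in batch 5, at 6.59 CPM on 305 counts. The Selenof row in Se 0.1 was lowest in batch 5, at 0 CPM, where the next library held 18.3 CPM. The first and the last of these libraries are among the 3 of smallest effective size, and the second is not.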

How the results depend on the processing

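No member passed the test under any alternative run. Of 304 refits of a member's log2 fold change, 278 kept their sign and 26 did not. Leaving out 1 culture batch kept 194 of 216 signs. The mixed rows that hold another transcript of the same gene had the member's sign in 25 of 54 values. Those rows also count RNA of other genes, so their signs do not measure how stable the member values are. The intervals of the 4 rows spanned 0 in the fit reported above, while some of the other rows had intervals that did not, and the cause of each turn was not tested.

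With the culture batch as a block, the pairing of replicate numbers, no call of a member changed and the sign turned for Tfap2c in Se 0.1 against control (0.0044), Tfap2c in averaged Se 0.1 (0.11) and Tfap2c in averaged HCA (-0.022). DESeq2 turned the sign for Gpx4 in averaged Se 0.1 (-0.071) and Sephs2 in averaged Se 0.1 (-0.019). RLE factors turned it for Gpx4 in averaged Se 0.1 (-0.058) and Sephs2 in averaged Se 0.1 (-0.00049). The limma voom fit turned it for Tfap2c in Se 0.1 against control (1.01), Tfap2c in averaged Se 0.1 (0.55), Tfap2c in the Se 0.1 interaction (-0.92) and Selenof in the Se 0.1 interaction (0.055). Without the 3 libraries of smallest effective size it turned for Sephs2 in Se 0.1 against control (-0.054), Selenof in Se 1 against control (-0.084), Sephs2 in averaged Se 0.1 (-0.058), Gpx4 in averaged Se 1 (0.052), Sephs2 in averaged Se 1 (-0.019), Tfap2c in averaged HCA (-0.023) and Selenof in averaged HCA (-0.057). Without these 3 and with the block it turned for Sephs2 in Se 0.1 against control (-0.057), Sephs2 in Se 1 against control (-0.0060), Selenof in Se 1 against control (-0.0099), Sephs2 in averaged Se 0.1 (-0.062), Gpx4 in averaged Se 1 (0.015), Sephs2 in averaged Se 1 (-0.037), Tfap2c in averaged HCA (-0.27) and Selenof in averaged HCA (-0.021). The mixed row of Gpx4-202 had the other sign in Se 0.1 against control (-0.23), averaged Se 0.1 (-0.23), averaged Se 1 (0.090) and the Se 0.1 interaction (0.015). The mixed row of Gpx4-207 had the other sign in Se 0.1 against control (-0.074), Se 0.1 under HCA (0.015), averaged Se 0.1 (-0.029), averaged Se 1 (0.083) and the Se 0.1 interaction (0.089). The mixed row of Selenof-202 had the other sign in Se 0.1 against control (0.080), Se 0.1 under HCA (0.10), Se 1 under HCA (0.045), averaged Se 0.1 (0.091), averaged Se 1 (0.099) and the Se 0.1 interaction (0.023). The mixed row of Selenof-204 had the other sign in Se 1 against control (-1.82), Se 0.1 under HCA (0.11), averaged HCA (-1.03), the Se 0.1 interaction (0.48) and the Se 1 interaction (1.72). The mixed row of Tfap2c-201 had the other sign in Se 0.1 against control (0.075), Se 0.1 under HCA (-0.028), averaged Se 0.1 (0.024) and the Se 0.1 interaction (-0.10). The mixed row of Tfap2c-206 had the other sign in Se 1 against control (-1.37), Se 0.1 under HCA (-1.001), averaged Se 1 (-0.37), averaged HCA (-0.56) and the Se 1 interaction (1.99).

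The number of rows called by edgeR was 0 for selenite and 413 for HCA, and DESeq2 called 11 in Se 0.1 against control, 19 in Se 1 against control, 2 in Se 0.1 under HCA, 3 in Se 1 under HCA, 3 in averaged Se 0.1, 1 in averaged Se 1, 1068 in averaged HCA, 4 in the Se 0.1 interaction and 8 in the Se 1 interaction. Without the 3 libraries and with the block, edgeR called 916 for averaged HCA. Leaving out 1 culture batch at a time, edgeR called 0 to 5 rows in Se 0.1 against control, 0 to 11 rows in Se 1 against control, 0 to 1 rows in averaged Se 0.1, 0 to 3 rows in averaged Se 1 and 186 to 424 rows in averaged HCA. Over the same refits the sign turned for Gpx4 in Se 0.1 against control (-0.055 to 0.95), Tfap2c in Se 0.1 against control (-0.54 to 0.60), Sephs2 in Se 0.1 against control (-0.0090 to 0.21), Tfap2c in Se 0.1 under HCA (-0.054 to 0.29), Tfap2c in Se 1 under HCA (-0.12 to 0.13), Gpx4 in averaged Se 0.1 (-0.16 to 0.47), Tfap2c in averaged Se 0.1 (-0.24 to 0.36), Sephs2 in averaged Se 0.1 (-0.032 to 0.074), Gpx4 in averaged Se 1 (-0.21 to 0.13), Sephs2 in averaged Se 1 (-0.043 to 0.15), Selenof in averaged Se 1 (-0.17 to 0.017), Tfap2c in averaged HCA (-0.23 to 0.38), Tfap2c in the Se 0.1 interaction (-0.48 to 0.84) and Selenof in the Se 0.1 interaction (-0.30 to 0.16). Slc3a2 and Selenoo passed for averaged HCA in all 14 alternatives, at 0.69 to 0.80 and 0.62 to 0.81. The Gpx4 and Tfap2c rows had 0 counts in 3 and 2 libraries, and 3 counts equalled 0.0134 to 2.24 CPM by library. The values of list genes, list medians and markers without the 3 libraries were added after the data were seen.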
